A study of Mus musculus with 13 samples.

Results

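The antigen presentation genes followed here were 10 genes of the major histocompatibility complex (MHC) pathways, picked by symbol from the Ensembl identifiers of the count tables and read apart as class II and class I. The class II genes were Cd74, H2-Aa, H2-Ab1 and H2-Eb1, and the class I genes were H2-K1, H2-D1, B2m, Tap1, Psmb8 and Psmb9. They are 10 of the 42416 identifiers counted, and all 10 were among the 13360 genes that passed the filter on low counts. Whole interscapular brown adipose tissue (iBAT) was sequenced from 13 mice. The 8 iFAXLKO mice were homozygous for loxP-flanked Axl and Cre+, heterozygous for Adipoq-CreERT2, a tamoxifen-inducible Cre that an adiponectin bacterial artificial chromosome drives in adipocytes. The 5 WT mice were homozygous for the same floxed Axl and Cre-. Both groups therefore carried the floxed allele, had free access to a high-fat diet (HFD) and lived at room temperature. The study gives these mice as female and bred the chimeras that founded its Axl line with C57Bl6 mice. Tamoxifen was given every 3 weeks, starting at 6 to 8 weeks of age per the methods of the study. Whether the Cre- mice also received it is not stated there. The age at dissection is not given in the sources used here. The comparison asks how Cre activity against Axl in adipocytes relates to transcript levels in the depot as a whole.

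MHC molecules show peptides to T cells. Class I molecules pair a heavy chain such as H2-K1 or H2-D1 with B2m, stand on nearly all nucleated cells and carry peptides from the cytosol. Those peptides are cut by the proteasome, whose catalytic subunits Psmb5, Psmb6 and Psmb7 are replaced by Psmb8, Psmb9 and Psmb10 in cells exposed to interferon-gamma, and are pumped into the endoplasmic reticulum by the Tap1 and Tap2 transporter. Class II molecules are made mainly by dendritic cells, B cells and macrophages. H2-Aa and H2-Ab1 form the I-A molecule, H2-Eb1 is the beta chain of I-E, and Cd74, the invariant chain, fills the groove until H2-DM exchanges its remnant for a peptide. Both pathways share a promoter module of X, X2 and Y boxes, read with the help of the coactivators Ciita for class II and Nlrc5 for class I, and class I genes add sites for interferon and NF-kappaB signalling.

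The promoter stretches are shown because the same module can be read by eye across both classes. RefSeq promoter windows (GRCm38.p6, 250 bases before to 50 after a start) were at hand for 8 of the 10 genes, not for Cd74 and H2-Ab1, and for the H2-K1 entry with more than 1 window the window nearest the GENCODE 5′ end was used. Positions are counted from the start, with the start at 0. The first 4 stretches hold an X2 box core, TGACG, followed on the strand of the gene by the inverted CCAAT of the Y box, ATTGG, with 20 or 21 bases between them. In H2-Aa the core lies at -74 and the Y box at -48. In H2-K1 they lie at -41 and -16, in H2-D1 at -101 and -76, and in B2m at -78 and -53. Capitals mark the X2 core and the Y box in these, the X box and the Y box in H2-Eb1, and the X2 core in Tap1.
H2-Aa (chr17:34287863-34287911, minus strand): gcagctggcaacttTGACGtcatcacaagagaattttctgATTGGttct
H2-K1 (chr17:34000355-34000402, minus strand): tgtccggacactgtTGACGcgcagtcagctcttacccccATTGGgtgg
H2-D1 (chr17:35262979-35263026, plus strand): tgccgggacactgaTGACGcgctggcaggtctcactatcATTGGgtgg
B2m (chr2:122147595-122147642, plus strand): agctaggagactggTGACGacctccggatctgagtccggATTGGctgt
H2-Eb1 (chr17:34305771-34305816, plus strand): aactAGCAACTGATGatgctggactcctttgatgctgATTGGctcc
Tap1 (chr17:34187456-34187488, plus strand): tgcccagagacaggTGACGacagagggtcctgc

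The spaced pair was present in 4 of the 8 windows of these genes and in 54 of all 32851 windows, 0.164%. The spacing was read from these same windows, so the count describes them. The parts of the pair are common by themselves, with TGACG on either strand in 20.8% of all windows and ATTGG in 37.4%. The X box, searched as AGNNAC directly followed by NGATG, occurs in 0.968% of all windows and lay at -92 in H2-Eb1. Its last letters can also be the first letters of an X2 core. A kappaB site, searched as GGGNNTTCC and present in 5.82% of all windows, was matched in H2-Aa at -131, H2-K1 at -111 and H2-D1 at -171. The interferon-stimulated response element, searched as GAAA, 2 bases of any kind and GAAA and present in 3.44%, was matched in B2m at -139, and the gamma-activated site, TTCNNNGAA, present in 8.3%, in Psmb8 at -97. The kappaB letters and those of the gamma-activated site can overlap by TTC. Tap1 and Psmb9 lie head to head with starts 226 bases apart, so their windows share 275 bases and the X2 core of Tap1 at -86 is the match on the other strand of Psmb9 at -144. All motifs were searched on both strands, and a match of letters is a description, not a binding site.

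**Figure D1:**
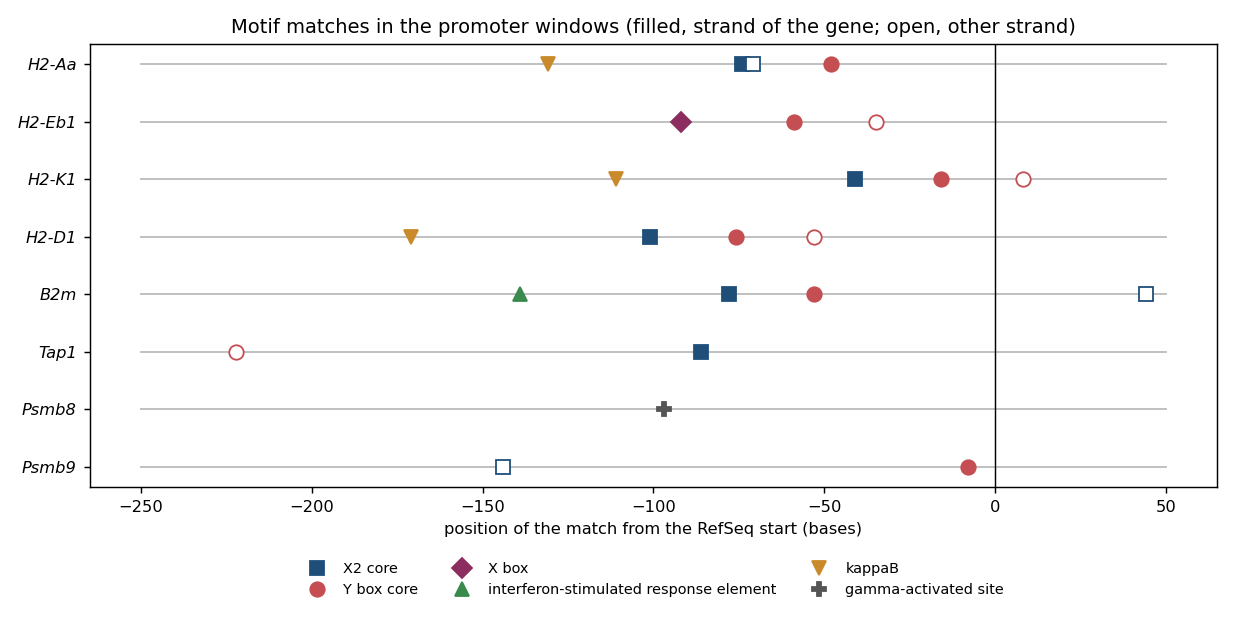
Positions of the motif matches in the promoter windows of 8 antigen presentation genes, in bases from the RefSeq start at 0, filled where the match is on the strand of the gene and open where it is on the other strand. An X2 core (square) is followed by a Y box core (circle) 20 or 21 bases further on in H2-Aa, H2-K1, H2-D1 and B2m.

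Libraries held 22.44 to 32.6 M counts, M standing for mega, and a count of 0 allows up to 3 counts, 0.092 to 0.134 counts per M (CPM) in these libraries, for counting error alone. Axl, the targeted gene, ranged from 26.5 to 43.9 CPM with a median of 31.6 in the 8 libraries labelled iFAXLKO and from 23.5 to 33.8 CPM with a median of 26.9 in the 5 WT libraries. It was thus not lower under its label in the whole depot (log2 fold change 0.25, SE 0.13, edgeR adjusted p 0.699), so the groups are named by their labels and every direction rests on them. The Cre acts in adipocytes, and Axl RNA from other cells of the depot cannot be told apart here. The study examined the deletion by western blot of AXL in the mature adipocyte fraction of inguinal white fat, which these RNA levels do not measure. Brown adipocyte markers summed to 15217 to 24045 CPM, high in every library of the labelled tissue, whereas skeletal muscle markers summed to 56.8 to 5556 CPM, so the dissections held unequal amounts of muscle RNA. WT replicate 1 stood apart in B cell markers, which summed to 153 CPM there and to a median of 24.04 CPM over all libraries. iFAXLKO replicate 7 had the highest level of all 10 antigen presentation genes among the 13 libraries, and WT replicate 5 the lowest level of 7 of them.

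All 10 antigen presentation genes had a higher mean level in the libraries labelled iFAXLKO, at 116% to 128% of the WT mean, and 0 of 10 passed the adjusted limit in edgeR, DESeq2 or limma-voom. The fitted log2 fold changes ran from 0.21 for B2m to 0.36 for Psmb8. The background in edgeR was 17 of 13360 genes, 0.127%, at an adjusted p under 0.05, 46.4% of genes with a log2 fold change above 0, and 3.84% higher at an unadjusted p under 0.05. Unadjusted p-values under 0.05 were found for 3 of 4 class II and 3 of 6 class I genes. The class II count was 1 without WT replicate 5, 1 with a pan-leukocyte score as a covariate and 0 with the macrophage score described further on. The class I count was 2 without WT replicate 1 or 5, 4 without WT replicate 2, 5 without iFAXLKO replicate 1 and 0 with the macrophage score. The replicate block, which kept only replicates 1 to 5 of each group, gave 0 class II and 3 class I genes. The same 10 libraries without the block gave 1 class II and 1 class I gene. The median log2 fold change was 0.295 for class II and 0.279 for class I, beside -0.012 for all genes tested. These genes vary together from mouse to mouse, as shown further on, so 10 equal signs are not 10 separate observations. No gene had ranges that were apart in the groups, against a background of 0.434% of genes. In a bulk sample of the depot, more cells of a type and more RNA per cell cannot be told apart.

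**Figure D2:**
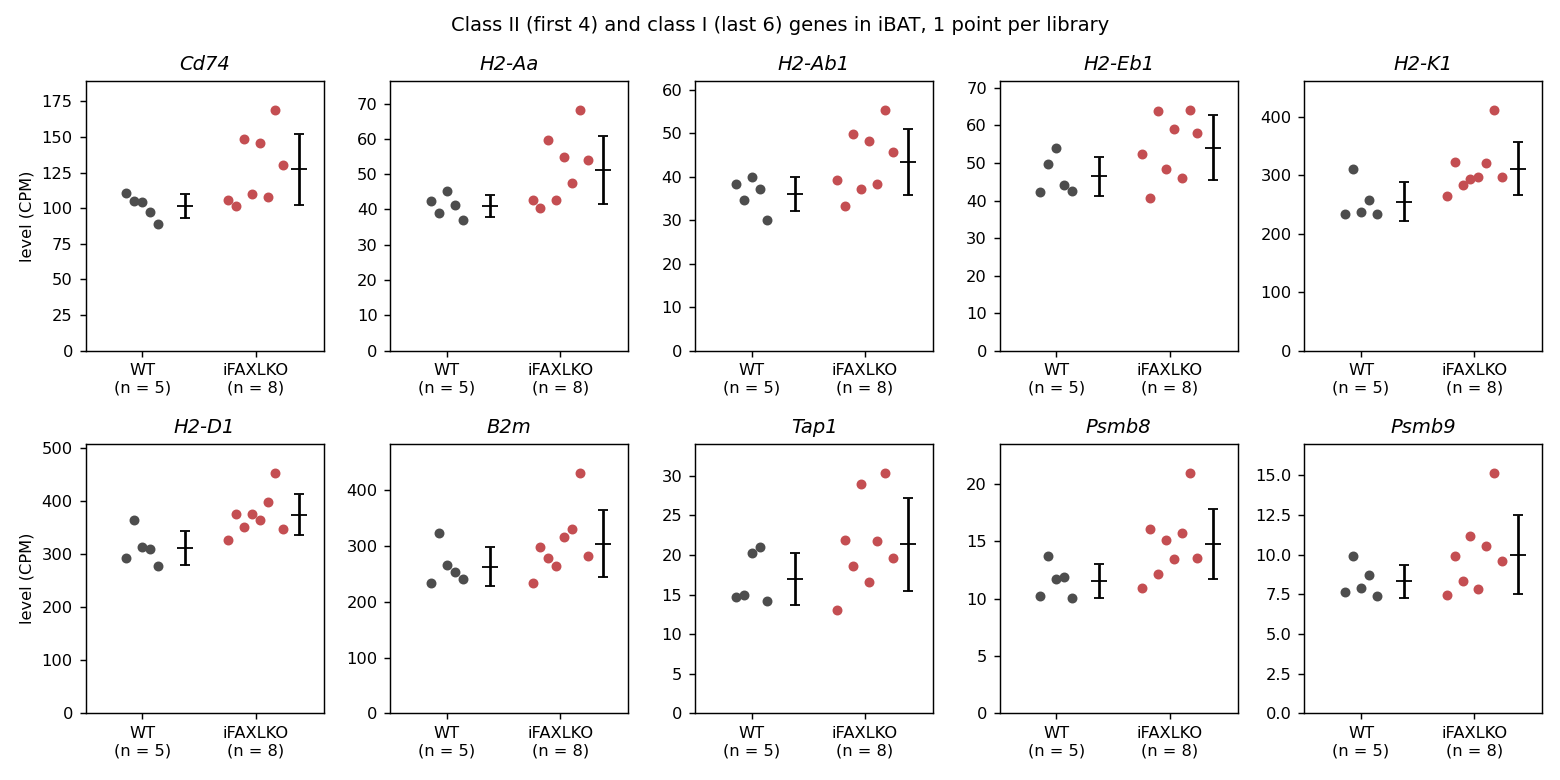
Level in CPM of the 4 class II and 6 class I genes, 1 point per library, with mean and SD as bars beside the points and axes from 0. The groups overlap for every gene, and the highest point of each panel is iFAXLKO replicate 7, for Cd74 at 169 CPM and for H2-K1 at 412 CPM.

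Cd74 (ENSMUSG00000024610), the invariant chain, had the highest level of the class II genes, in CPM and per kb of exon. Its WT levels in replicate order were 111, 105, 104, 97.4 and 88.8 CPM. In the libraries labelled iFAXLKO it ranged from 101 to 169 CPM with a median of 120, and 4 of these 8 lay above the highest WT library. All 8 were above the WT mean, yet the lower ones lay among the WT values. The means were 127 ± 24.9 CPM (SD, n = 8) and 101 ± 8.43 CPM (SD, n = 5), and the log2 fold change was 0.33 (SE 0.12, edgeR p 0.0177, adjusted p 0.550). The spread in the iFAXLKO group was wider than in WT, since replicates 3, 5, 7 and 8 held 131 to 169 CPM and the other 4 held 101 to 110.

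H2-Aa (ENSMUSG00000036594, chromosome 17, 34282744 to 34287823, GRCm38), the I-A alpha chain, showed the same division. The WT libraries had 42.5, 38.9, 45.1, 41.2 and 37.0 CPM in replicate order. The libraries labelled iFAXLKO went from 40.4 to 68.2 CPM with a median of 50.7, and 5 of 8 exceeded every WT library. The means were 51.2 ± 9.73 (SD, n = 8) and 40.9 ± 3.15 CPM (SD, n = 5), with a log2 fold change of 0.32 (SE 0.12, edgeR p 0.0168, adjusted p 0.550).

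H2-Ab1 (ENSMUSG00000073421, chromosome 17, 34257689 to 34269419), the I-A beta chain, was measured at 38.3, 34.7, 39.9, 37.2 and 30.0 CPM in the WT libraries and at 33.4 to 55.4 CPM, median 42.4, in those labelled iFAXLKO. Of the 8, 4 lay above the WT range and the lowest lay inside it. The log2 fold change was 0.27 (SE 0.12, edgeR p 0.0381, adjusted p 0.636). H2-Eb1 (ENSMUSG00000060586, chromosome 17, 34305867 to 34316674) had 42.3, 49.8, 54.0, 44.0 and 42.5 CPM in WT and 40.6 to 64.1 CPM, median 55.2, in the other group. Here too 4 of 8 exceeded the WT range, and the log2 fold change was 0.22 (SE 0.11, edgeR p 0.0753, adjusted p 0.709). Its partner H2-Ea, the I-E alpha chain, had 0 counts in all 13 libraries. Mice of the H2-b haplotype, such as C57BL/6, are known not to transcribe this gene and so to make no I-E, although they transcribe H2-Eb1.

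The order of the 4 chains was the same in both groups when levels were set per kb of exon. Cd74 led with 75.9 ± 14.8 CPM per kb in iFAXLKO and 60.4 ± 5.02 in WT. H2-Eb1 followed with 27.8 ± 4.44 and 23.9 ± 2.67, then H2-Ab1 with 16.9 ± 2.93 and 14.03 ± 1.51, and H2-Aa with 13.5 ± 2.56 and 10.8 ± 0.829 CPM per kb (SD, n = 8 and n = 5). The intervals of 1 SD of H2-Ab1 and H2-Aa met in the iFAXLKO group and those of the other neighbours did not. By counts H2-Aa was above H2-Ab1, so the order of this pair rests on the annotated exon lengths. Within a library the chains kept nearly constant ratios. The counts of Cd74 were 2.93 ± 0.123 times those of H2-Ab1 in iFAXLKO and 2.82 ± 0.196 times in WT, a difference of 0.05 on the log2 scale (SE 0.04). The corresponding ratio of H2-Aa was 1.18 ± 0.0516 against 1.14 ± 0.0531, and that of H2-Eb1 1.25 ± 0.0588 against 1.30 ± 0.147. In exact permutation tests, 2-sided and adjusted over 8 ratios, the p-values of these 3 were 0.326, 0.326 and 0.519. The smallest unadjusted p such a test can give is 0.000777.

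H2-K1 (ENSMUSG00000061232, chromosome 17, 33996017 to 34000347), a classical class I heavy chain, had WT levels of 234, 311, 238, 257 and 233 CPM in replicate order. The libraries labelled iFAXLKO had 264 to 412 CPM with a median of 296.9. All 8 were above the WT mean but only 3 were above WT replicate 2, the highest of its group. The means were 311 ± 44.7 (SD, n = 8) and 254.7 ± 33.1 CPM (SD, n = 5), with a log2 fold change of 0.29 (SE 0.11, edgeR p 0.0168, adjusted p 0.550).

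H2-D1 (ENSMUSG00000073411, chromosome 17, 35262730 to 35267499), the other classical heavy chain of this haplotype, had the smallest p of the 10 genes. It stood at 292.5, 365, 314.5, 310 and 278.5 CPM in WT and at 327 to 454 CPM, median 371, in the other group, with 8 of 8 above the WT mean and 5 of 8 above every WT library. The log2 fold change was 0.27 (SE 0.09, edgeR p 0.0101, adjusted p 0.512). Reads of the class I heavy chains can match several of these near-identical genes, and how the counting shared them is not stated, so their separate levels are uncertain. The ratio of H2-K1 to H2-D1 counts was 0.828 ± 0.0407 and 0.816 ± 0.0386, with an adjusted exact permutation p of 0.591.

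B2m (ENSMUSG00000060802, chromosome 2, 122147686 to 122153083), the light chain of all class I molecules, was measured at 234, 323, 266, 254 and 241 CPM in WT. It ranged from 234 to 432 CPM with a median of 290.5 in the libraries labelled iFAXLKO, of which 2 exceeded the WT range. The groups overlapped over most of their span. Its log2 fold change of 0.21 (SE 0.13, edgeR p 0.127, adjusted p 0.753) was 0.12 without iFAXLKO replicate 7. B2m held 0.441 ± 0.0368 counts for each count of H2-K1 and H2-D1 together in iFAXLKO and 0.464 ± 0.0169 in WT, a log2 difference of -0.08 (SE 0.06, adjusted exact permutation p 0.326). Per kb of exon B2m was the highest of the 10 genes, at 354 ± 69.3 and 306 ± 41.1 CPM per kb, above H2-D1 at 145 ± 15.0 and 121 ± 12.7 and H2-K1 at 106 ± 15.2 and 86.7 ± 11.3.

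The peptide supply genes were much lower per kb, between 2.27 and 4.36 CPM per kb in group means, and the intervals of 1 SD of Psmb8 and Tap1 and of Tap1 and Psmb9 met in both groups. Tap1 (ENSMUSG00000037321, chromosome 17, 34187553 to 34197225), the transporter subunit, had 14.7, 14.95, 20.2, 20.97 and 14.2 CPM in WT and 13.1 to 30.4 CPM, median 20.7, in the libraries labelled iFAXLKO. Both groups were spread over their range, and the log2 fold change was 0.33 (SE 0.18, edgeR p 0.0934, adjusted p 0.732). Psmb8 (ENSMUSG00000024338, chromosome 17, 34197721 to 34201454), the chymotrypsin-like immunoproteasome subunit, had 10.2, 13.7, 11.7, 11.9 and 10.03 CPM in WT and 11.0 to 20.96 CPM, median 14.35, in the other group. Its log2 fold change was the largest of the 10, at 0.36 (SE 0.14, edgeR p 0.0187, adjusted p 0.551). Psmb9 (ENSMUSG00000096727, chromosome 17, 34181987 to 34187764) had 7.66, 9.91, 7.88, 8.75 and 7.42 CPM in WT and 7.43 to 15.2 CPM, median 9.78, in iFAXLKO. Its log2 fold change of 0.27 (SE 0.15, edgeR p 0.0998, adjusted p 0.734) was 0.16 without iFAXLKO replicate 7. The annotated spans of Tap1 and Psmb9 overlap on opposite strands, and those of H2-Eb1, B2m and Psmb8 overlap a gene on the other strand. Since the strand setting of the counting is not stated, such reads cannot be assigned with certainty.

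**Figure D3:**
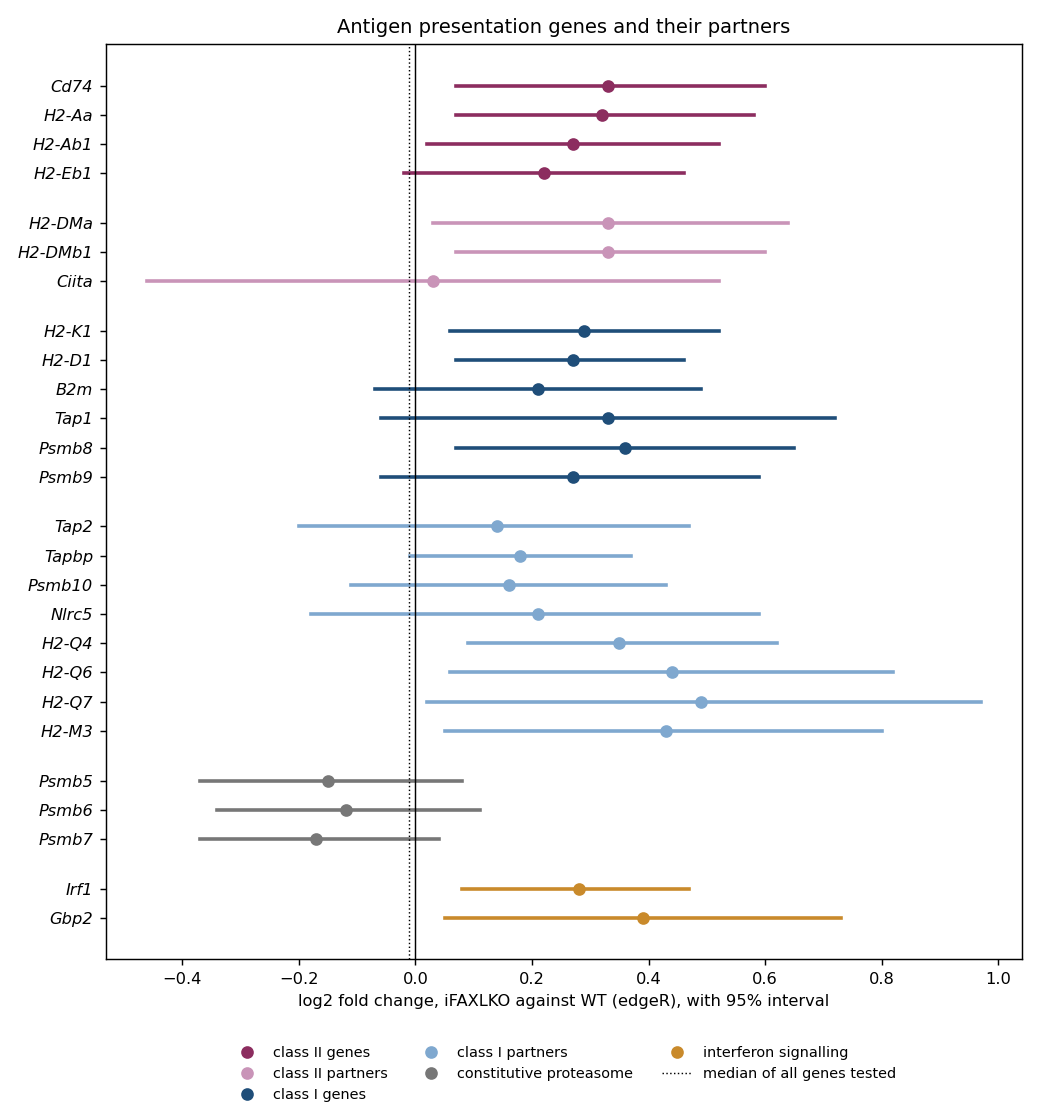
edgeR log2 fold changes of the libraries labelled iFAXLKO (n = 8) against WT (n = 5) with 95% intervals, for the 10 antigen presentation genes, their partners, the constitutive proteasome subunits and a pair of interferon signalling genes; the dotted line is the median of all genes tested, -0.012. The antigen presentation genes lie between 0.21 and 0.36 and the constitutive proteasome subunits between -0.17 and -0.12. H2-DMa, H2-DMb1, H2-Q4, H2-Q6, H2-Q7, H2-M3, Irf1 and Gbp2 are drawn because their unadjusted edgeR p was under 0.05. They do not stand for the rest of their lists, which also hold negative values.

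The immunoproteasome subunits were also read against the constitutive subunits that they replace, a ratio within a library that needs no scaling between libraries. Psmb5, Psmb6 and Psmb7 had log2 fold changes of -0.15, -0.12 and -0.17, with edgeR adjusted p-values of 0.811, 0.872 and 0.739. WT replicate 2 had the highest level of each, and without it the values were -0.00, 0.03 and -0.04. The ratio of Psmb8 to Psmb5 counts was 0.132, 0.110, 0.131, 0.152 and 0.121 in the WT libraries and 0.131 to 0.268, median 0.185, in those labelled iFAXLKO, 6 of which exceeded every WT library. The difference was 0.47 on the log2 scale (SE 0.16, exact permutation p 0.0179, adjusted over 8 ratios 0.0715), so it did not pass the limit after adjustment. It was 0.39 to 0.53 when any 1 library was left out.

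The ratio of Psmb10 to Psmb7 gave a like picture. It was 0.115, 0.150, 0.151, 0.146 and 0.135 in WT and 0.138 to 0.222, median 0.178, in the other group, with 6 of 8 above the WT range. The log2 difference was 0.33 (SE 0.11, exact permutation p 0.0124, adjusted 0.0715). Psmb9 to Psmb6 was 0.0747 ± 0.00862 in WT and 0.0968 ± 0.0270 in iFAXLKO, a log2 difference of 0.33 (SE 0.18, exact permutation p 0.0909, adjusted 0.242), and without iFAXLKO replicate 1 its unadjusted p was 0.0429. By counts per kb, Psmb8 stood at 0.0485 of Psmb5 in iFAXLKO and 0.0344 in WT, and Psmb10 at 0.354 and 0.280 of Psmb7, so the constitutive subunits prevailed in both groups.

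**Figure D4:**
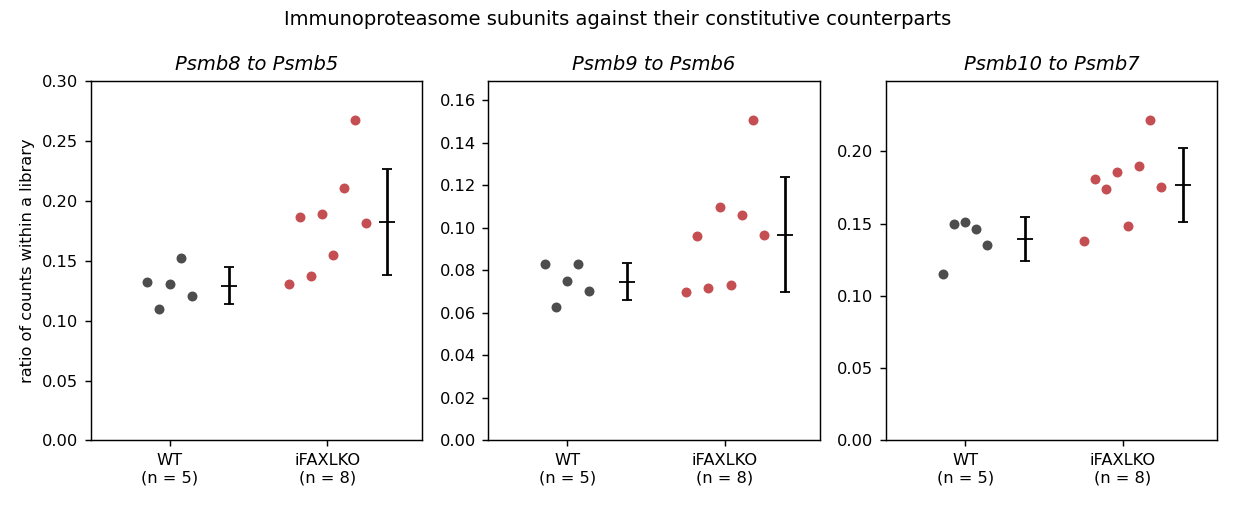
Ratio of the counts of an immunoproteasome subunit to those of its constitutive counterpart, 1 point per library with mean and SD as bars, axes from 0. For Psmb8 to Psmb5 and for Psmb10 to Psmb7, 6 of the 8 libraries labelled iFAXLKO lie above all 5 WT libraries, with iFAXLKO replicate 7 the highest at 0.268 and 0.222.

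The other genes of the 2 pathways were described as lists, with no test of a list. Over all genes tested, 46.4% had a log2 fold change above 0 and 3.84% were higher at an unadjusted edgeR p under 0.05. Of the 22 further class II pathway genes 16 were tested, and 12 had positive and 4 negative log2 fold changes, with a median of 0.076. The median was 0.018, with 9 positive, without WT replicate 5, 0.042 without WT replicate 4 and 0.117 without WT replicate 2. None passed the adjusted limit in edgeR, DESeq2 or limma-voom, and 2 had an unadjusted edgeR p under 0.05. These were the subunits of H2-DM, the peptide exchanger, with log2 fold changes of 0.33 (SE 0.14) for H2-DMa and 0.33 (SE 0.12) for H2-DMb1, and adjusted p-values of 0.628 and 0.550. H2-DMa was at 4.84 ± 1.03 CPM (SD, n = 8) against 3.84 ± 0.170 CPM (SD, n = 5). The count of 2 was 1 without iFAXLKO replicate 5 or 7 or WT replicate 2 or 4, and 0 without WT replicate 5. Ciita, the class II coactivator, was low at 2.37 ± 0.559 and 2.31 ± 0.909 CPM, with a log2 fold change of 0.03 (SE 0.23). WT replicate 1 was the highest library in Ciita, at 3.70 CPM, and without it the value was 0.26, whereas without WT replicate 2 it was -0.12.

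Of the 30 further class I pathway genes 26 were tested, 20 with positive and 6 with negative log2 fold changes and a median of 0.128, which was 0.085 without WT replicate 5. None passed the adjusted limit in the same 3 tools, and 4 had an unadjusted edgeR p under 0.05, all nonclassical heavy chains. These were H2-Q4 with a log2 fold change of 0.35 (SE 0.13), H2-Q6 with 0.44 (SE 0.18), H2-Q7 with 0.49 (SE 0.22) and H2-M3 with 0.43 (SE 0.18), at adjusted p-values of 0.516, 0.609, 0.647 and 0.619. H2-Q4 had the highest CPM of them, at 38.7 ± 7.89 against 30.3 ± 2.15 CPM. H2-Q6 and H2-Q7 are near-identical copies and share reads, so they count as uncertain. The value of H2-M3 was 0.28 without WT replicate 5. The count of 4 was 2 without iFAXLKO replicate 7 or WT replicate 4, 1 without WT replicate 5 and 8 without WT replicate 2. Nlrc5, the class I coactivator, had a log2 fold change of 0.21 (SE 0.18), Tap2 of 0.14 (SE 0.16), Tapbp, which tethers Tap to empty class I molecules, of 0.18 (SE 0.09) and Psmb10 of 0.16 (SE 0.13), with adjusted p-values of 0.871, 0.907, 0.698 and 0.854. Without WT replicate 2 the value of Nlrc5 was 0.09 and that of Psmb10 0.32, without WT replicate 1 that of Psmb10 was 0.07, and without WT replicate 5 that of Tap2 was 0.06.

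Interferon-gamma is a main inducer of both pathways. Ifng itself was at or below 0.150 CPM in every library, close to the limit that a count of 0 allows. Of the 24 interferon signalling genes 21 were tested, 15 with positive log2 fold changes and a median of 0.172. The median was 0.080 without iFAXLKO replicate 7, 0.097 without WT replicate 2, 0.262 without WT replicate 3 and 0.069 in limma-voom. None passed the adjusted limit in edgeR, DESeq2 or limma-voom, and 2 had an unadjusted edgeR p under 0.05. Irf1, the transcription factor that carries the interferon signal to class I promoters, was at 30.7 ± 3.77 CPM (SD, n = 8) in iFAXLKO and 25.4 ± 1.89 CPM (SD, n = 5) in WT. All 8 libraries labelled iFAXLKO exceeded the WT mean, and the log2 fold change was 0.28 (SE 0.09, edgeR p 0.00757, adjusted p 0.490). Gbp2, an interferon-induced GTPase, had a log2 fold change of 0.39 (SE 0.16, edgeR adjusted p 0.620). The count of 2 was 5 without iFAXLKO replicate 1, 4 without iFAXLKO replicate 3 or WT replicate 3 and 1 without iFAXLKO replicate 7 or WT replicate 2 or 5.

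Class I and class II differed in which mice were high. After subtraction of the group means, the Pearson r of log2 CPM between pairs of class II genes over the 13 libraries was 0.82 to 0.96 with a median of 0.90 over 6 pairs. Between pairs of class I genes it was 0.48 to 0.94 with a median of 0.88 over 15 pairs, and between a class I and a class II gene 0.03 to 0.54 with a median of 0.28 over 24 pairs. These are descriptions of libraries that share their scaling. The lowest class I values were those of Tap1. iFAXLKO replicates 3, 5 and 8 had high class II scores, of 6.19, 6.11 and 6.04 mean log2 CPM over the 4 genes, beside class I scores of 5.94, 5.97 and 6.03 over the 6 genes. Conversely, iFAXLKO replicates 2, 4 and 6 had class II scores of 5.60, 5.75 and 5.78 and class I scores of 6.15, 6.18 and 6.197. Only iFAXLKO replicate 7 was highest in both, at 6.32 and 6.59. In WT the class II scores were 5.50 to 5.82 and the class I scores 5.66 to 6.02.

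**Figure D5:**
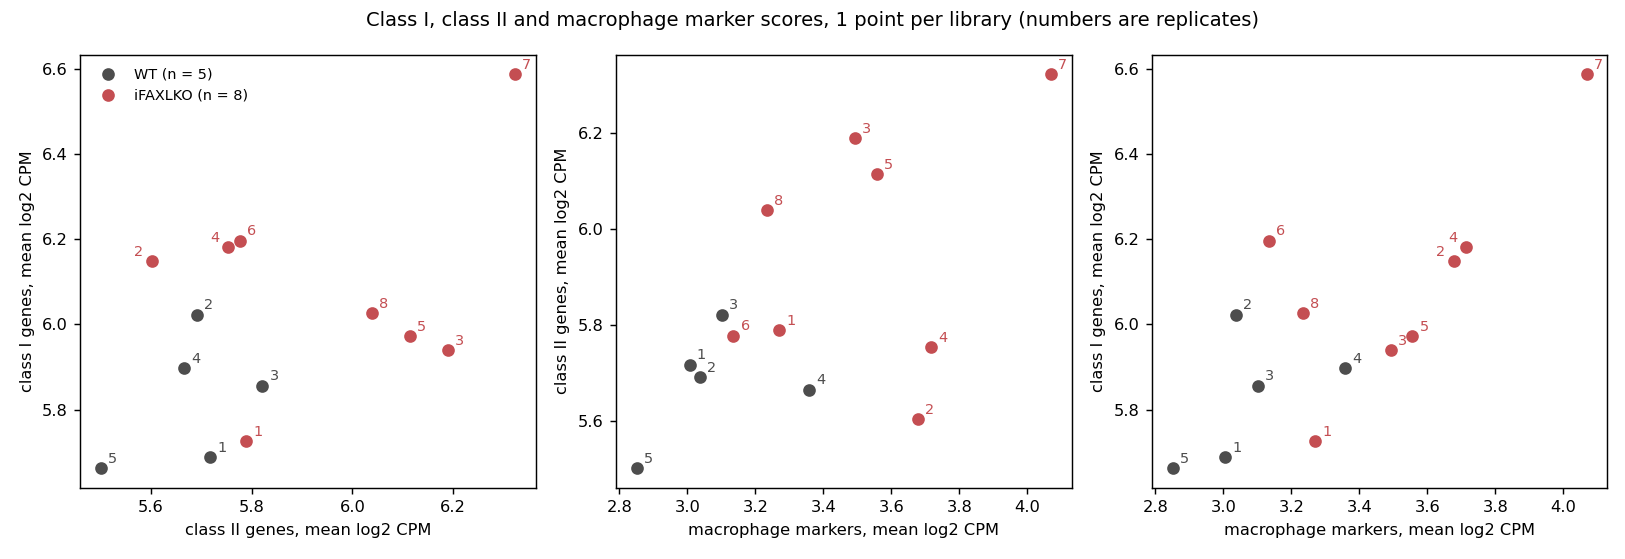
Mean log2 CPM of the 4 class II genes, the 6 class I genes and 14 macrophage markers in each library, 1 point per library labelled with its replicate number, WT in grey (n = 5) and iFAXLKO in red (n = 8). In the left plot iFAXLKO replicates 3, 5 and 8 extend along the class II axis and replicates 2, 4 and 6 along the class I axis, and replicate 7 is the highest on both.

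The genes most like Cd74 over the 13 libraries, members left aside, were Pqlc2 with r of 0.91, Zc3h15 with 0.85, H2-DMa with 0.85, Eif3e with 0.82 and Taf9b with 0.81. H2-DMa was the only gene of the class II pathway list among these 5, and its r with B2m was 0.75. Those most like B2m were Emd with r of 0.91, Las1l with 0.89, 1700052K11Rik with 0.89, Dnajc8 with 0.88 and Polr3d with 0.87, and no gene of the class I pathway or interferon lists was among them. The highest r with B2m in those lists was that of Cxcl9, an interferon-gamma-induced chemokine, at 0.87. With 13 libraries and 13360 genes a high r is to be met by many genes, so these values name the nearest patterns only.

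Markers of the cells that carry class II were measured beside these genes, and none of them passed the adjusted limit in edgeR. All 14 macrophage markers had positive log2 fold changes, with a median of 0.433, beside 46.4% of all genes tested. Of them 11 were higher at an unadjusted edgeR p under 0.05, beside 3.84% of all genes tested. The summed level of these markers was 149 to 214 CPM, median 193, in WT and 184 to 370 CPM, median 250, in the libraries labelled iFAXLKO, with iFAXLKO replicate 7 the highest. Those with the highest CPM were Lyz2, C1qa and C1qb, with log2 fold changes of 0.44, 0.44 and 0.39. The count of 11 fell to between 4 and 7 without iFAXLKO replicate 2, 4 or 7 or WT replicate 1, 2 or 5, and was 4 without WT replicate 5. The macrophage score reached 3.68 and 3.72 in iFAXLKO replicates 2 and 4. Their class II scores lay within the WT range of class II, and their class I scores, 6.15 and 6.18, lay above the WT range of class I. iFAXLKO replicate 7 was the highest library in the macrophage score, at 4.07, and in both class scores. The median r of the 14 markers was 0.32 with Cd74 and 0.41 with B2m. With the macrophage score as a covariate, a fit chosen after seeing the data, the median log2 fold change was 0.143 for class II and 0.051 for class I. In that fit Tap1 and Psmb9 turned to -0.08 and -0.03. The same fit gave 0.153 for the fibroblast list described further on and -0.228 for the pan-leukocyte list. With the pan-leukocyte score as the covariate instead, the medians were 0.232 for class II and 0.250 for class I.

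Of 9 B cell markers only Ighm was tested, with a log2 fold change of -1.04 (SE 0.53, edgeR adjusted p 0.709). The summed level was 9.97 to 153 CPM in WT and 9.28 to 37.4 CPM in iFAXLKO, and Cd79a, which defines B cells, was at 0.0376 to 5.24 CPM with WT replicate 1 the highest. That library, at 111 CPM of Cd74, was the highest of WT in this gene, and without it the median of class II was 0.313. Of 12 dendritic cell markers 5 were tested and 4 of these had positive values, with a median of 0.659. Cd209a, with a log2 fold change of 0.82 (SE 0.28), and Dpp4, with 0.66 (SE 0.25), had unadjusted edgeR p-values of 0.0101 and 0.0173. Both were named after these values were seen, and the lowest tested marker of the list had -0.04. A bulk level does not tell which cells made the transcript, so neither gene names dendritic cells by itself. The median was 0.286 to 0.401 over 4 tested genes without iFAXLKO replicate 3, 4, 5, 7 or 8. The list had summed levels of 46.7 to 96.2 CPM in WT and 51.5 to 191 CPM in iFAXLKO, and Irf4 and Zbtb46, which other cells also express, had the highest CPM. The defining markers Xcr1, Clec9a and Flt3 stayed at or below 1.20 CPM in every library. None of 11 T and NK cell markers passed the filter, and their sum was 1.44 to 16.2 CPM in WT and 1.91 to 7.94 CPM in iFAXLKO. Of 6 pan-leukocyte markers 5 had positive values with a median of 0.087 and none an unadjusted p under 0.05, whereas without WT replicate 1 the median was 0.531 and 4 had one. Without WT replicate 5 the median was -0.027, and without WT replicate 4 or iFAXLKO replicate 3 it was 0.038, each time with 3 of 6 positive.

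Markers of the other cells of the depot were read the same way. All 7 fibroblast markers had positive log2 fold changes with a median of 0.714 and an unadjusted edgeR p under 0.05, beside 3.84% of all genes tested. Past the adjusted limit were 0 in edgeR, 2 in DESeq2, which called 67 genes in all, and 0 in limma-voom. The markers summed to 328 to 575 CPM in WT and 455 to 991 CPM in iFAXLKO. Col3a1, Dcn and Col1a1, which encode matrix proteins, had log2 fold changes of 0.71, 0.41 and 0.73. The 7 endothelial markers had a median of 0.151, which was 0.085 without WT replicate 2, and summed to 542 to 813 CPM in WT and 648 to 1029 CPM in iFAXLKO. The 11 brown adipocyte markers had a median of -0.065, which was 0.050 without WT replicate 2. Of them 1 passed the adjusted limit, Adipoq, the gene in the bacterial artificial chromosome of the Cre transgene, at 879 to 1300 CPM in iFAXLKO and 621 to 865 CPM in WT, with a log2 fold change of 0.66 (SE 0.11, edgeR adjusted p 0.0118), and it did not pass without WT replicate 1 or 5. Skeletal muscle markers had a median of -0.258, which ran from -0.876 without iFAXLKO replicate 5 to 0.028 without WT replicate 1. The part of any of these cells in the levels of the antigen presentation genes was not tested.

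The library numbers in the labels were cut into a lower and an upper range for a further comparison. The cut was a choice made here and is not given by the labels, whose numbers hold another gap as wide. The differences in mean log2 CPM were not equal in the ranges. In the lower range, with 4 iFAXLKO and 2 WT libraries, they ran from -0.04 for B2m to 0.41 for Tap1. In the upper range, with 4 and 3 libraries, they ran from 0.24 for Tap1 to 0.50 for Cd74. Of the 10 genes, 9 had the larger difference in the upper range, Tap1 being the exception. They vary together, so these are not 9 separate observations, and the share over all genes was not computed. The upper range also holds iFAXLKO replicate 7, the highest library in all 10 genes, and WT replicate 5, the lowest in 7. Cd74 had 0.09 and 0.50, H2-K1 0.11 and 0.44, and H2-D1 0.13 and 0.38. What the numbers stand for is not given in the sources used here.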

How the data were processed

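Bulk RNA was sequenced from iBAT of 8 iFAXLKO and 5 WT mice, 1 library per mouse. The deposited files hold raw read counts made by the authors, 1 whole number per Ensembl identifier. The labels name bcl2fastq 2.20, fastp 0.20.0, STAR 2.7.4a and the build GRCm38.p6, whereas the methods of the study name Trim Galore and hisat2, and polyadenylated RNA per the labels stands against depletion of ribosomal RNA in the methods. How reads were counted, and with which strand setting, is not given in the sources used here.

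GENCODE M21 (GRCm38) gave positions and exon lengths. The length is the union of all annotated exons of a gene, so levels per kb depend on the annotation. Genes over 1 CPM in at least 5 libraries were kept, scaled by TMM and tested with edgeR 4.0.16 (robust quasi-likelihood F test, 2-sided, Benjamini-Hochberg over 13360 genes, limit 0.05). The SE is the log2 fold change divided by the square root of F. CPM use TMM factors, and log2 CPM a prior count of 2. Ratios of counts were compared by exact permutation, 2-sided. P-values measure the spread between these mice. The lowest chi-square per degree of freedom between libraries of a group was 18.41, so each counted as 1 replicate. The fit was tested on simulated data, with changed genes at larger folds than those of the antigen presentation genes. That test therefore does not show whether differences of their size would be called.

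The genes, lists and tests were chosen with earlier results of these data known, and named genes followed a rule: the 10 genes, Axl, set regulators and partners, pathway or interferon genes at an unadjusted p under 0.05, up to 3 abundant genes of a marker list and the 5 most alike to Cd74 and B2m. Genes named outside it, after their values were seen, are Ifng, Cxcl9, Cd79a, Xcr1, Clec9a, Flt3, Cd209a, Dpp4, Adipoq and H2-Q10. Alternatives were DESeq2 1.42.0, limma-voom (limma 3.58.1, R 4.3.3), other factors and filters, a replicate block, covariates and each library left out. Promoters came from RefSeq.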

Additional observations from a re-analysis of the deposited data

Results flagged for a closer look

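Each value over a group of libraries was tested for 1 library far from the rest by the ratio of its gap to the range of the group, in 36 groups of values, and chance marks about 1 in 20 such groups. H2-K1 stood apart in iFAXLKO replicate 7, at 412 CPM where the other 7 libraries of the group had 264 to 323 CPM, a gap of 0.602 of the range against a critical value of 0.526. The ratio of H2-Aa to H2-Ab1 counts stood apart in WT replicate 5, at 1.23 where the other 4 WT libraries had 1.11 to 1.13, a gap of 0.825 of the range against a critical value of 0.71. WT replicate 5 had the lowest H2-Ab1 of all libraries at 30.0 CPM, and 4 libraries labelled iFAXLKO had ratios of 1.19 to 1.24.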

How the results depend on the processing

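Of 280 fold changes of the 10 genes under 28 alternatives, 278 kept their sign, and none passed the adjusted limit in any, with adjusted p-values from 0.169 to 1.000. A covariate added once the data had been seen, the macrophage score, gave Tap1 -0.08, Psmb9 -0.03 and a class I median of 0.05, and called 11 genes in all. Leaving out 1 library gave class I medians of 0.22 to 0.33, class II medians of 0.23 to 0.34 and 14 to 19 called genes. Beside 17 in the main analysis, DESeq2 called 67 genes in all, protein-coding genes alone 7 and the replicate block 7. With the replicate block, over 10 libraries, the class II median was 0.205 and the class I median 0.197, and without the block over the same 10 libraries, likewise added later, they were 0.217 and 0.201 with 12 genes called. The correlations of same-numbered libraries were 0.372, 0.322, 0.106, 0.161 and -0.523. Differently numbered libraries were not compared, so these values cannot tell whether the numbers pair the mice.

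The ratios of Psmb8 to Psmb5 and of Psmb10 to Psmb7 kept unadjusted exact permutation p-values under 0.05 with any 1 library left out, at most 0.0364 and 0.0404. Smaller sets did not pass, and 4 libraries against 2 or 5 pairs cannot. In the lower range of library numbers their log2 differences were 0.40 and 0.36, both with an exact p of 0.2, in the upper range 0.57 and 0.33 with exact p-values of 0.0571 and 0.0857, and by same-numbered pairs (replicate block) 0.30 and 0.24 with exact p-values of 0.125 and 0.0625. For Psmb9 to Psmb6 the difference was 0.24 to 0.40 with 1 library left out. Ratios near 0 changed sign: H2-K1 to H2-D1 was -0.01 to 0.04 when 1 library was left out, -0.03 in the lower range and -0.01 by pairs, B2m to both heavy chains was 0.01 in the upper range, and in the lower range Cd74 to H2-Ab1 was -0.02 and H2-Eb1 to H2-Ab1 was 0.03. The cause of these changes was not tested.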

Other observations

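H2-Q10, a secreted class I heavy chain known mainly from liver, was plentiful in iBAT, at 173 to 309 CPM in the libraries labelled iFAXLKO and 98.3 to 323 CPM in WT, and was named after its values were seen. Its log2 fold change was 0.31 (SE 0.24, edgeR adjusted p 0.840). The WT libraries had 202, 323, 98.3, 120 and 198 CPM in replicate order, a wider spread than in the other group, and the fold change was 0.16 to 0.59 when 1 library was left out. Reads shared with H2-K1, H2-D1 and the other H2-Q genes make its level uncertain. All Y-linked markers listed were at 0 counts in the 13 libraries, and Xist had 247 to 575 CPM.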
